A study of Mus musculus with 2 samples.

Results

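The Hippo pathway genes described here are 10 genes: the kinases Lats1 and Lats2, the coactivators Yap1 and Wwtr1 (the gene of TAZ), the DNA-binding factor Tead1, and the target genes Ctgf (also Ccn2), Cyr61 (also Ccn1), Ankrd1, Amotl2 and Axl. They were chosen by name, and every probe set that the platform annotation assigns to one of them alone was taken. This gave 25 probe sets out of 45101 on the array, and 10 genes out of 11693 that could be compared. Expression was measured in precancerous liver on Affymetrix arrays, on which each probe set, a group of short probes against a transcript, gives a signal on a linear scale. The first group was Pik3caTg;Kdm3aKO, mice with a hepatocyte-specific Pik3ca transgene and a knockout of the histone H3K9 demethylase gene Kdm3a. The other was Pik3caTg;Kdm3aWT, mice with the same transgene and wild-type Kdm3a. Both groups thus carried the transgene of the phosphoinositide 3-kinase catalytic subunit, and no liver without it was analysed here. All mice were kept on a regular chow diet. The promoter of the transgene, the cells in which Kdm3a was deleted, age, sex, and whether RNA of several animals was pooled are not stated in the sources used here.

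Each group was 1 array, so no test was possible, no value below has an error between animals, and the differences describe these arrays. The number of arrays limits the precision. The only repeat measurement was that of different probe sets of the same gene, whose log2 ratios had an SD of 0.446 over 4958 genes. This SD compares probe sets on the same arrays and holds no variation between animals or RNA samples. A ratio beyond it is not thereby shown to recur in other animals. Kdm3a had a signal of 61.6 in the knockout array and 719.9 in the wild-type array, read by 1 probe set whose place relative to the deletion is not known here. Signals below 46.5, the floor, were raised to it, so a ratio that uses a raised value is a lower limit, marked "at least". Hepatocyte markers other than Ass1 were bright on both arrays, with 53356 for Alb in the knockout array and 44119 in the wild-type array, as the tissue label says. Across all 11693 genes, the median log2 ratio of knockout over wild type was -0.02.

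The Hippo pathway is a kinase cascade that limits organ size. The kinases Stk3 and Stk4 activate Lats1 and Lats2, which phosphorylate YAP and TAZ and so keep them out of the nucleus. When this brake is released, YAP and TAZ enter the nucleus, bind TEAD factors and switch on genes such as Ctgf and Cyr61. In liver, active YAP is known for driving overgrowth and tumours, and YAP is more abundant in bile duct cells than in hepatocytes. The RNA levels given here do not measure phosphorylation or the place of the proteins in the cell.

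Most of the target genes were lower in the knockout array. Ctgf, Cyr61, Ankrd1 and Axl were lower there, while Amotl2 was higher. A log2 ratio below 0 was also found for 52.2% of all genes compared. Among the regulators, Wwtr1 was lower, Lats1 was 1.44-fold higher, and Yap1, Tead1 and Lats2 differed less. Ankrd1 was the single member at least 2-fold lower, and Amotl2 the single member at least 2-fold higher. Of all genes compared, 8.96% were at least 2-fold lower and 3.83% at least 2-fold higher, so with 10 members a count of 1 in each direction is near the background. At 1.5-fold, 5 members were lower (Ankrd1, Cyr61, Wwtr1, Ctgf and Axl) and 1 was higher (Amotl2), against 17.4% and 11.1% of all genes. With other scalings of the arrays, Axl fell short of 1.5-fold (-0.55 with quantile normalization, -0.58 with loess, -0.46 with poly-A controls). Ctgf did so with poly-A controls (-0.51). The median log2 ratio of the 10 members was -0.46. It was -0.70 for the 5 target genes and -0.06 for the 5 regulators.

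**Figure D1:**
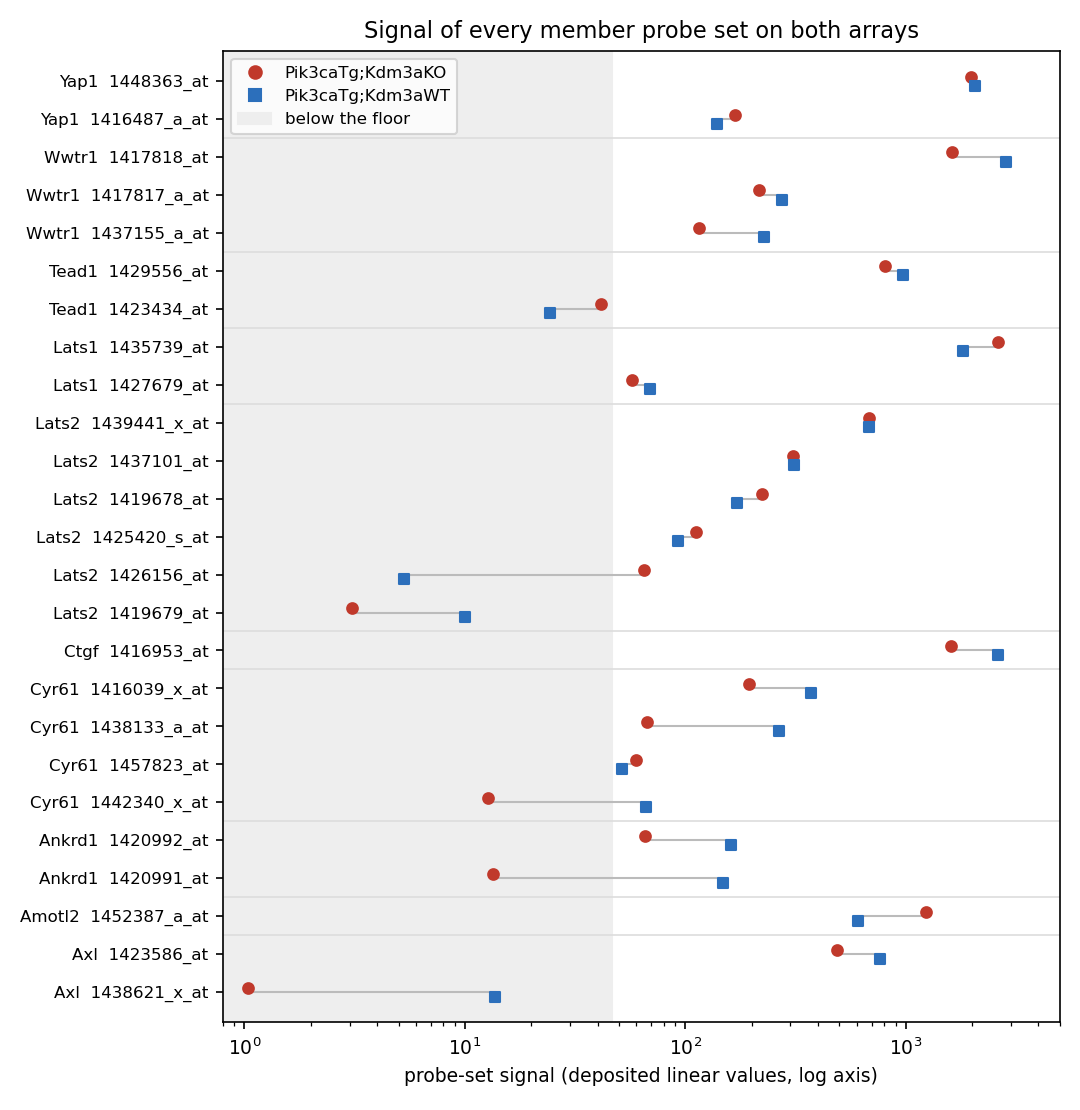
Deposited probe-set signal on a log axis for all 25 probe sets of the 10 members, with the knockout array as red circles and the wild-type array as blue squares, and signals below the floor of 46.5 shaded. The probe sets of Wwtr1, Ctgf and Ankrd1 have their circle left of their square, and that of Amotl2 has it to the right. Brightness is not comparable between probe sets.

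Because Tead factors bind the letters GGAATG, the promoters of the target genes were searched for this motif and its reverse complement CATTCC in the 250 bases before the start site. Promoter sequences were those of RefSeq for the build GRCm38.p6, in which 8 of the 10 members were matched, in 10 windows. Ctgf and Tead1 were not matched. Of the 10 windows, 7 held the motif, against 12.6% of 32851 windows of the same length over all genes. They belong to 6 of the 8 genes: Yap1, Wwtr1, Cyr61, Ankrd1, Amotl2 and Axl. Cyr61, Ankrd1, Amotl2 and Axl were chosen as target genes of YAP and TAZ, which act through TEAD factors. The contrast with all windows was thus partly set by that choice and is not a test. Wwtr1 has overlapping windows that share the same match, and those of Lats1 and Lats2 held none. Ankrd1 had 2 matches, and 1.02% of all windows had 2 or more. The windows of the 4 matched target genes are shown because their signals carry the differences described next, in the sense of the gene, 5′ to 3′, with the motif in capitals.
Ankrd1: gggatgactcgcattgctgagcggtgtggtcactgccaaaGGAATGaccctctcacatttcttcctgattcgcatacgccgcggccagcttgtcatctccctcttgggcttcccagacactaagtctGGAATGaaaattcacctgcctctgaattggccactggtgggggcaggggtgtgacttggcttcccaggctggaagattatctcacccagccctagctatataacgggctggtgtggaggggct
Cyr61: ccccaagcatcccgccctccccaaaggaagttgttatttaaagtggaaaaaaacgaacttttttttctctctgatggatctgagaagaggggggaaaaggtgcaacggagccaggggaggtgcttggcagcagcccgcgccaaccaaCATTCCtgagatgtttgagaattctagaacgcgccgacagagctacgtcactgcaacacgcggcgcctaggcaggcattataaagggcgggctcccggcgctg
Axl: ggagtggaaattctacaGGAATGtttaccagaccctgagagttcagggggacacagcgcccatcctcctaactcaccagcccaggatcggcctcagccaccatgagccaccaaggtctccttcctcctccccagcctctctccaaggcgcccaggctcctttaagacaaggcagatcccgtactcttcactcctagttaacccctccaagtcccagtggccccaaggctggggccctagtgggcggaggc
Amotl2: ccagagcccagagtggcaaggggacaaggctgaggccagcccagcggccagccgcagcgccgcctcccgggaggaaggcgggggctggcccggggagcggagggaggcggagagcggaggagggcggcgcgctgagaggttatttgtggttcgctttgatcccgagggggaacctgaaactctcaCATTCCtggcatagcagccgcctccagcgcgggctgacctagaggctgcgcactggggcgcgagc
The Ankrd1 window lies at chr19:36119845-36120094 on the minus strand, with matches that begin 210 and 123 bases before the start site. That of Cyr61 is chr3:145649986-145650235 on the minus strand, with a match 103 bases before the start. That of Axl is chr7:25788734-25788983 on the minus strand, with a match 233 bases before the start. That of Amotl2 is chr9:102717554-102717803 on the plus strand, with a match 65 bases before the start. The match is thus present in the window of Amotl2, which was higher in the knockout array, as well as in those of genes that were lower. A second motif, TGANTCA, bound by AP-1 and equal to its own reverse complement, was found in 0 of the 10 member windows and in 6.75% of all windows. A match is a run of letters and was not measured as a binding site.

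Ankrd1 encodes an ankyrin repeat protein best known from heart and muscle, and is among the most widely used readouts of YAP activity. Its brighter probe set, 1420992_at, had a signal of 65.6 in the knockout array and 160.9 in the wild-type array, a log2 ratio of -1.29, or 2.45-fold lower. The other, 1420991_at, had 13.4 in the knockout array, below the floor, and 148.4 in the wild-type array, which is at least 3.19-fold lower. Both probe sets were therefore low in the knockout array, and both are dim. The knockout signal of the brighter one is itself under the filter of 73.7 on mean signal, so Ankrd1 passed through its wild-type signal. Of all genes, 5.64% had a lower ratio than Ankrd1. Among the 2339 genes that make up the dimmest 20% by mean signal, where Ankrd1 lies, 14.8% were at least 2-fold lower.

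Cyr61 encodes a secreted matricellular protein that binds integrins. Its brightest probe set, 1416039_x_at, had a signal of 195.2 in the knockout array and 370.7 in the wild-type array, a log2 ratio of -0.93. A second, 1438133_a_at, had 66.8 in the knockout array and 266.2 in the wild-type array, 3.99-fold lower. Both were lower in the knockout array, but by amounts that differ by more than the SD between probe sets. The other probe sets were too dim to be kept. Of these, 1442340_x_at had 12.8 in the knockout array, below the floor, and 66.2 in the wild-type array, at least 1.42-fold lower. The other, 1457823_at, had 59.96 in the knockout array and 51.8 in the wild-type array, the opposite direction. Cyr61 stood just within 2-fold by its brightest probe set, and just past it with each array centred on its median (-1.02) or scaled on its hybridisation controls (-1.06). It lay further within 2-fold with poly-A controls (-0.74), quantile normalization (-0.82) and loess (-0.86).

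Ctgf encodes connective tissue growth factor, a matricellular protein that promotes matrix deposition. It was read by a single probe set, with a signal of 1613 in the knockout array and 2614 in the wild-type array, which is 1.62-fold lower. Its log2 ratio of -0.70 was higher than that of 14.2% of all genes. Axl encodes a receptor tyrosine kinase for the ligand Gas6. Its probe set 1423586_at had 485.8 in the knockout array and 761.4 in the wild-type array, a log2 ratio of -0.65. A second Axl probe set lay below the floor on both arrays, at 1.04 in the knockout array and 13.7 in the wild-type array, and gives no ratio. Ctgf and Axl were thus lower by more than the SD between probe sets, and within 2-fold.

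Amotl2, an angiomotin family protein that binds YAP and holds it in the cytoplasm, is itself switched on by YAP and so acts in a feedback loop. Its single probe set, 1452387_a_at, had a signal of 1240 in the knockout array and 606.2 in the wild-type array, 2.04-fold higher. Of all genes, 96.5% had a lower log2 ratio than its 1.03. Amotl2 was thus the target gene that went the other way from Ctgf, Cyr61, Ankrd1 and Axl. It was just past 2-fold, and just short of it with each array centred on its median (0.94) or scaled on its hybridisation controls (0.90). Of the 2338 genes in the 20% bin of mean signal that holds Amotl2, 1.71% were at least 2-fold higher.

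**Figure D2:**
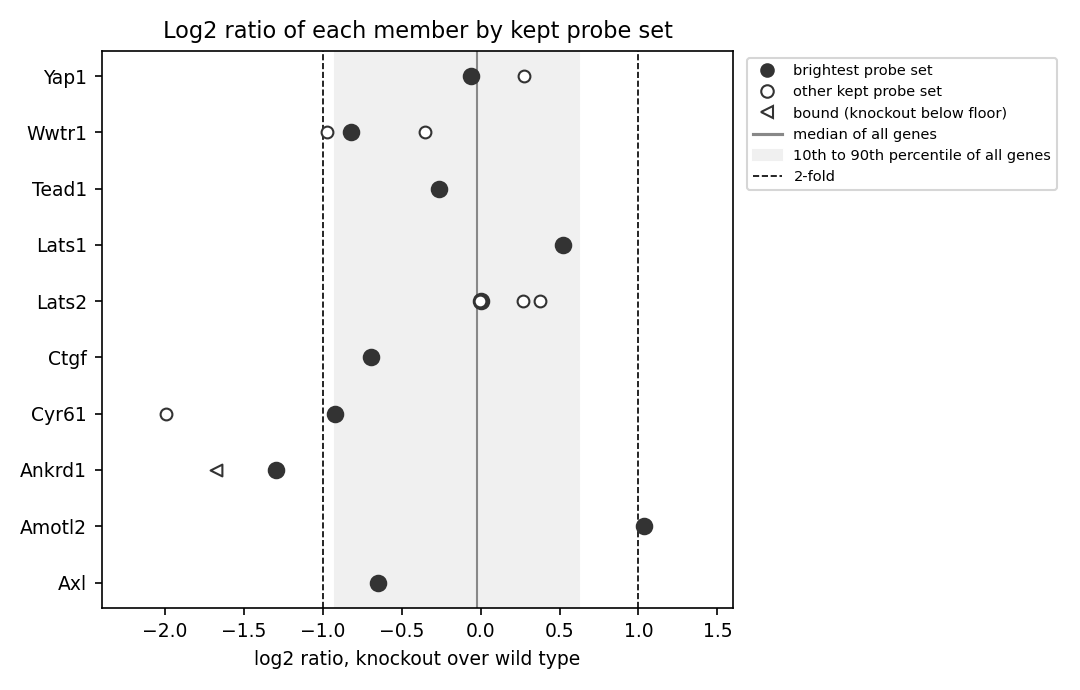
Log2 ratio of knockout over wild type for each kept probe set of the 10 members. Filled points are the brightest probe set of a gene, open points its others and the triangle a bound, with the 10th to 90th percentile of all genes shaded. Ankrd1 lies at -1.29, left of the 2-fold line at -1, and Amotl2 at 1.03, right of that at 1; the probe sets of Cyr61 lie at -0.93 and -1.995.

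Wwtr1 and Yap1 encode the paired coactivators TAZ and YAP, which are inhibited by the same kinases. Wwtr1 was lower in the knockout array by all 3 of its probe sets. The brightest, 1417818_at, had a signal of 1615 in the knockout array and 2854 in the wild-type array, a log2 ratio of -0.82. The probe set 1437155_a_at had 115.5 in the knockout array and 227.1 in the wild-type array, and 1417817_a_at had 215.1 in the knockout array and 275.1 in the wild-type array. Their log2 ratios were -0.98 and -0.36, so the size of the difference in Wwtr1 varied by probe set while its direction did not. Yap1 had 1974 in the knockout array and 2058 in the wild-type array by 1448363_at, a log2 ratio of -0.06. Its dimmer probe set, 1416487_a_at, had 168.0 in the knockout array and 139.0 in the wild-type array, a log2 ratio of 0.27. The Yap1 probe sets thus gave no common direction, and the ratio of the brighter turned positive, to 0.12, with scaling on the poly-A controls. Of all genes, 11.6% had a lower ratio than Wwtr1 and 47.0% a lower ratio than Yap1.

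Tead1 encodes a TEA domain factor, through which YAP and TAZ reach DNA. Its kept probe set, 1429556_at, had a signal of 807.3 in the knockout array and 971.0 in the wild-type array, a log2 ratio of -0.27 that is within the SD between probe sets. Its second probe set was below the floor on both arrays, at 41.6 in the knockout array and 24.4 in the wild-type array.

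Lats1 and Lats2 encode the kinases that phosphorylate YAP and TAZ, and Lats2 is itself a YAP target. Lats1 had a signal of 2621 in the knockout array and 1823 in the wild-type array by 1435739_at, a log2 ratio of 0.52, or 1.44-fold higher. By this probe set Lats1 had a higher ratio than 86.9% of all genes. Its dim probe set, 1427679_at, had 57.5 in the knockout array and 69.3 in the wild-type array and was not kept. Lats2 was nearly the same on both arrays by its brightest probe set, 1439441_x_at, with 680.7 in the knockout array and 680.5 in the wild-type array. By 1437101_at it had 309.2 in the knockout array and 310.6 in the wild-type array. The dimmer kept probe sets of Lats2 had 223.6 and 111.7 in the knockout array, against 172.3 and 92.8 in the wild-type array, log2 ratios of 0.38 and 0.27. Of the last 2 probe sets, 1426156_at had 65.0 in the knockout array against 5.28, under the floor, for the wild type, at least 1.40-fold higher, and 1419679_at was below the floor on both. Lats2 was thus within the SD between probe sets by every kept probe set, and the ratio of its brightest one had no fixed sign, from -0.13 to 0.18 over the scalings.

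**Figure D3:**
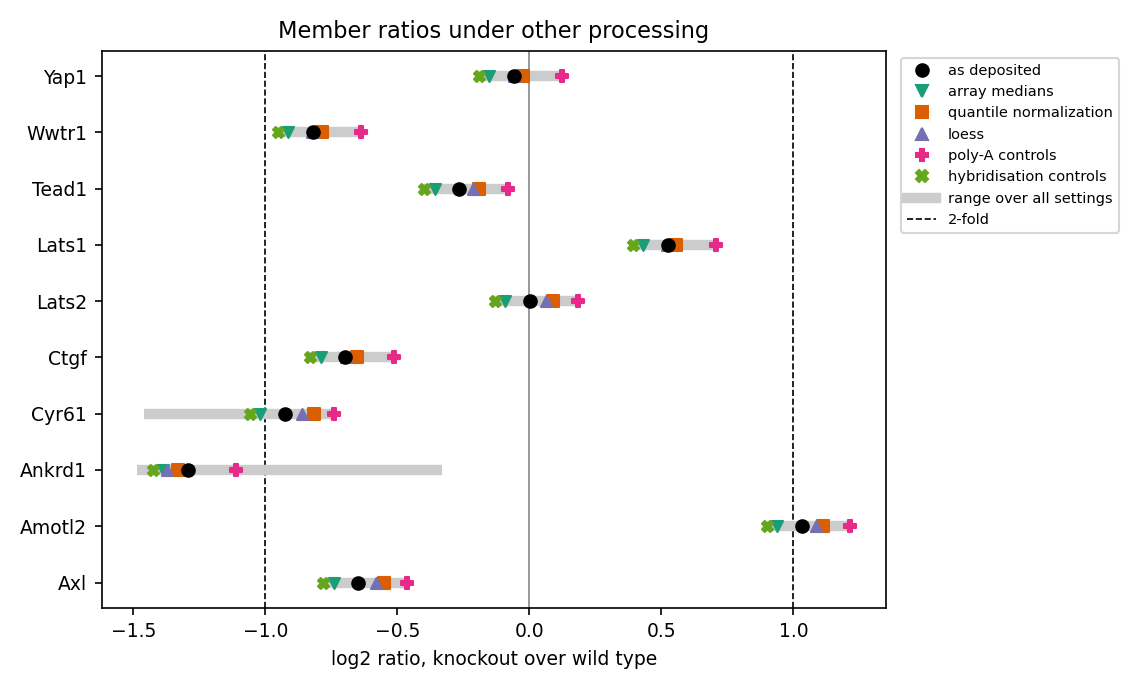
Log2 ratio of each member under other processing, with the values as reported in black, the 5 other scalings as coloured symbols and the range over all settings as grey bars. Yap1 and Lats2 cross 0 between scalings, Wwtr1, Tead1, Ctgf, Cyr61, Ankrd1 and Axl stay below 0 and Lats1 and Amotl2 above it; the bar of Ankrd1 reaches -0.33 with a higher floor.

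Other genes of the pathway were followed in 4 lists. Of 29 kinases, adaptors and polarity proteins upstream of YAP, 27 were measured, and 25 lay within 2-fold. Their median log2 ratio was -0.29, beside -0.02 for all genes. Of the 27, 19 were below 0, beside 52.2% of all genes. Ajuba, a LIM protein that inhibits LATS kinases, was lowest, with 167.7 in the knockout array and 581.4 in the wild-type array (-1.79). Scrib, a polarity protein, was highest, with 198.5 in the knockout array and 77.5 in the wild-type array (1.36). With 1 of 27 lower and 1 of 27 higher, these regulators were not past 2-fold more often than the 8.96% and 3.83% of all genes. Of 10 other TEAD factors and cofactors, 4 were measured, all within 2-fold. The highest was Vgll4 (0.42), which competes with YAP for TEAD, and the lowest was the beta-catenin gene Ctnnb1 (-0.12). Tead2 and Tead4 were on the array but too dim to be kept.

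In 2 lists of further target genes, 5 of 14 and 9 of 15 measured genes were at least 2-fold lower, beside 8.96% of all genes. At least 2-fold higher were 0 and 1 of them, beside 3.83% of all genes. Both lists were written with earlier results of these data known. A published YAP and TAZ target signature of human tumours holds 16 genes besides the members, of which 14 were measured. Besides the 5 lower genes, 0 were at least 2-fold higher, and the median was -0.44. The lowest were the membrane-repair protein gene Myof, with 56.6 in the knockout array and 266.1 in the wild-type array (-2.23), the ecto-nucleotidase Nt5e (-1.71), the matrix protein gene Ccdc80 (-1.68) and the growth factor Tgfb2. Tgfb2 had 30.3 in the knockout array, below the floor, and 135.9 in the wild-type array, at least 2.92-fold lower. Both Myof and Tgfb2, 2 of the 5 lower genes, had a knockout signal under the filter and passed it through their wild-type signal. The highest were Arhgef17 (0.84), whose probe sets went both ways, Nuak2 (0.46), Igfbp3 (0.11) and the tissue factor gene F3 (-0.05).

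Of 20 other genes widely described as YAP or TAZ targets, 15 were measured and 1 was at least 2-fold higher, besides the 9 lower genes. The median of the list was -1.06, but -0.38 with a floor at the 60th percentile. The lowest were the matricellular Ccn5, with 50.7 in the knockout array and 264.6 in the wild-type array (-2.38), the collagen Col8a1 (-2.22), Ajuba and the cyclin Ccnd1. Ccnd1 had 470.8 in the knockout array and 1428 in the wild-type array (-1.60). The highest were the growth factor Fgf1, with 3681 in the knockout array and 1628 in the wild-type array (1.18), Edn1 (0.62), Slc2a1 (0.17) and Notch2 (0.02). Of the 9 lower genes, 3 had a knockout signal under the filter and passed through their wild-type signal. Another, Jag1, had probe sets that disagreed in sign (-1.30 to 0.21). The list shares Sox9 with the bile duct cell markers, Tagln with the fibroblast markers and Ajuba with the upstream regulators. Its genes are also controlled by other factors, and Ccnd1 and Birc5 are genes of dividing cells.

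**Figure D4:**
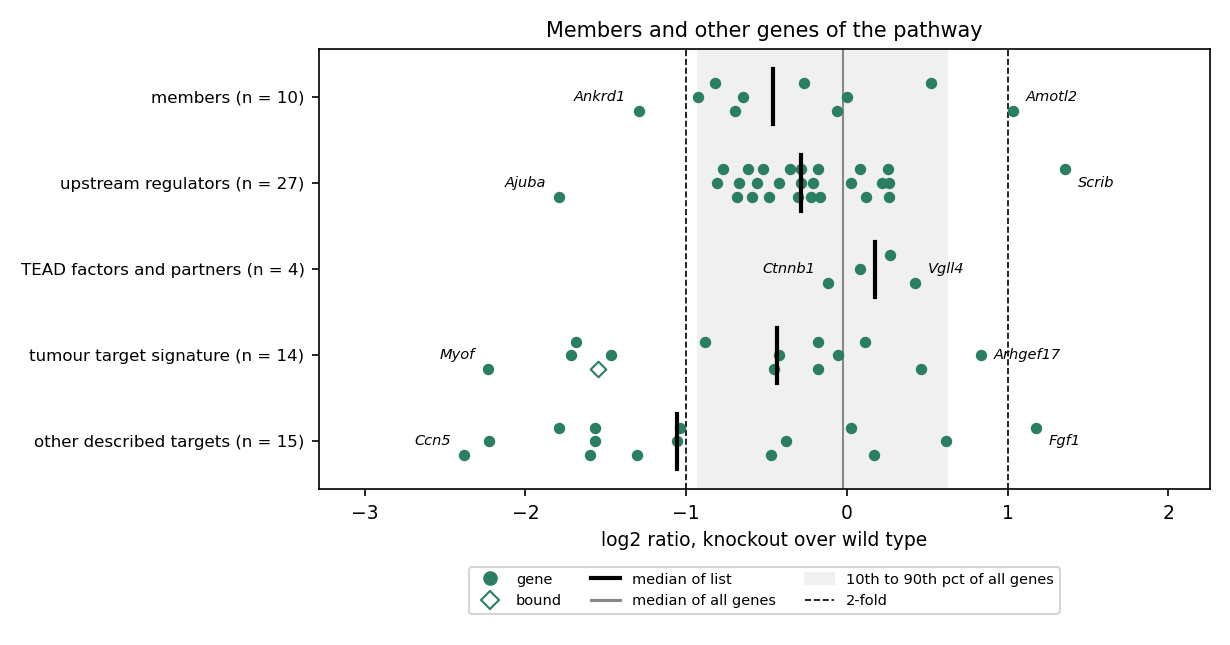
Log2 ratio of knockout over wild type for the measured genes of each list, with black bars at list medians, a diamond for a bound and the 10th to 90th percentile of all genes shaded. The medians run from -1.06 for the other described targets to 0.18 for the TEAD factors and partners, and that of the 10 members is -0.46.

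Most markers of stellate cells and fibroblasts and of bile duct cells, though not all, were also lower in the knockout array. In bulk tissue, fewer cells of a type and less RNA per cell cannot be told apart. Markers of stellate cells and fibroblasts numbered 16, and 10 of them passed 2-fold in the lower direction and 0 in the other. The shares of all genes were 8.96% and 3.83%. Of the 10, 2 had a knockout signal under the filter and passed it through the wild-type signal. The median was -1.71, against -1.02 with a floor at the 60th percentile and -0.99 with a filter at the 70th. Their summed signal was 22016 in the knockout array and 45314 in the wild-type array, of which Dcn gave 10684 and 13338. Such sums are led by the brightest probe sets, and brightness is not comparable between probe sets. The fibrillar collagen genes Col3a1 (-3.56) and Col1a2 (-3.21) were lowest, Reln (0.03) and Pdgfra (-0.24) were highest, and 1 marker, Loxl1, was below the floor in the knockout array. Bile duct cell markers numbered 10, and 9 of them were lower past 2-fold and 0 higher, beside the same shares of all genes. Of the 9, 4 passed the filter through the wild-type signal. Among the dimmest 20% of genes by mean signal, 14.8% were at least 2-fold lower. The median of the bile duct cell markers was -1.50, or -0.89 with the 60th percentile floor. Their summed signal was 14104 in the knockout array and 21352 in the wild-type array, of which Dsg2 gave 10966 and 10086. Cd24a (-3.40) and Tspan8 (-2.96) were lowest and Dsg2 (0.12) and Sox9 (-1.06) highest. Different probe sets disagreed in sign for Tspan8 (-2.96 to 0.69) and for Anxa4 (-1.22 to 0.57), both counted as lower. The part of these cells in the values of Ctgf, Cyr61, Ankrd1, Axl and Wwtr1 was not tested.

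Endothelial markers were closer to all genes, since 1 of 13 was lower past 2-fold and 0 higher, beside 8.96% and 3.83% of all genes. Their median was -0.30. Their summed signal was 11156 in the knockout array and 11822 in the wild-type array, with Vwf (-1.20) and Emcn (-0.70) lowest and Clec4g (0.41) and Ptprb (0.36) highest. Of 11 hepatocyte markers, 2 were higher past 2-fold and 0 lower. Their median was 0.40 as reported, but 0.07 with quantile normalization and 0.09 with loess, scalings that correct bright and dim signals separately. Their summed signals were 535593 in the knockout array and 390137 in the wild-type array. Ass1 (2.26) and Hpd (1.004) were highest and Ahsg (0.18) and Cyp2e1 (0.26) lowest. The Ass1 probe set, with 673.2 in the knockout array and 141.0 in the wild-type array, was far dimmer than those of the other hepatocyte markers. Hpd was only just past 2-fold, so the count of higher hepatocyte markers rests on a dim probe set and a borderline ratio. Macrophage markers went both ways, with 6 of 14 lower and 3 higher, a median of -0.50 and summed signals of 36486 in the knockout array and 51957 in the wild-type array. Gpnmb (-4.12) and Trem2 (-2.38) were lowest, and Cd163 and Marco, whose wild-type signals were under the floor, were highest, at least 23.9-fold and at least 6.01-fold higher. All 3 higher markers, Timd4 included, were under the floor in the wild-type array and passed the filter through the knockout signal, so the count of higher markers rests on them. Too few lymphoid and neutrophil markers were measured to describe those cells. Of 5 for T and NK cells, 1 was lower (Nkg7, -1.29) and the highest was Gzma (0.80). Of 4 for B and plasma cells, 1 was higher (Jchain, 1.99) and the lowest was Cd79b (-0.63). Of 3 for neutrophils, 2 were lower (S100a9, -2.18, and S100a8, -1.73) and Csf3r (0.52) was highest.

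**Figure D5:**
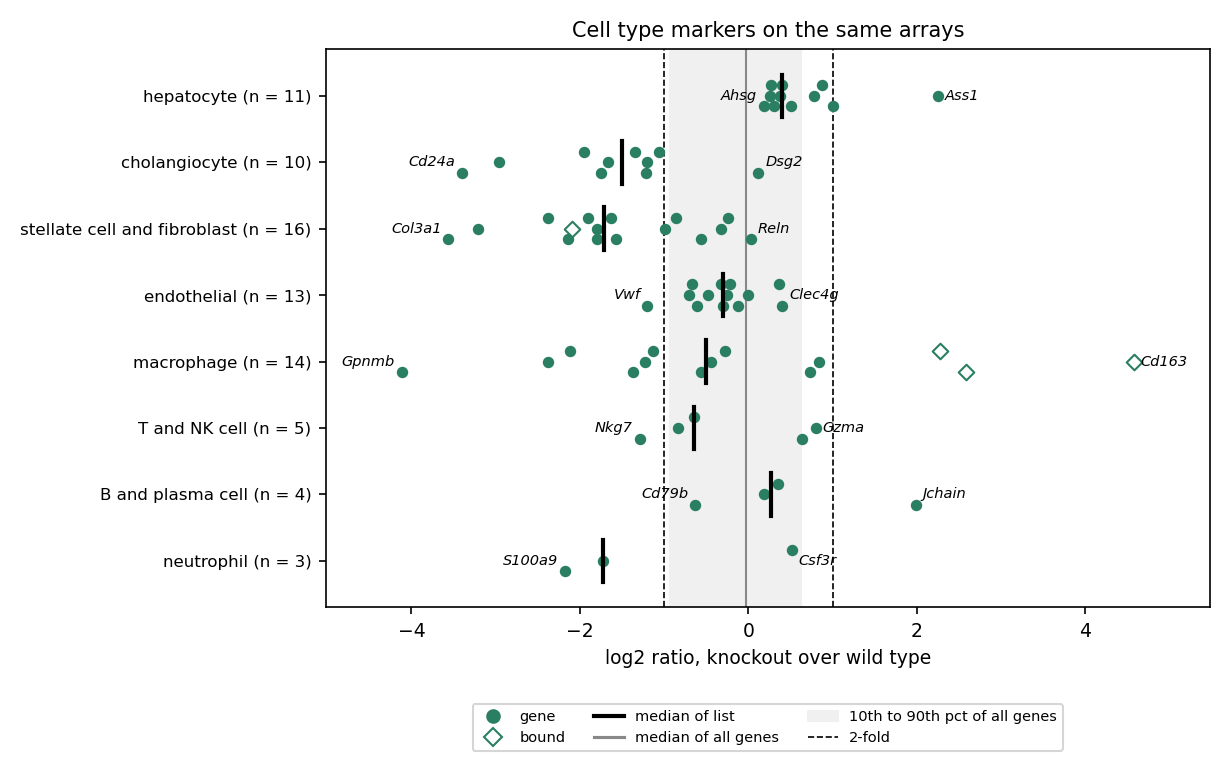
Log2 ratio of knockout over wild type for the measured markers of 8 cell types, with black bars at list medians, diamonds for bounds and the 10th to 90th percentile of all genes shaded. The medians of the bile duct cell (-1.50) and fibroblast (-1.71) markers lie left of the 2-fold line as reported, though not under every floor and filter. With the 60th percentile floor that of bile duct cells is -0.89, and with the 70th percentile filter that of fibroblasts is -0.99. The hepatocyte median lies at 0.40 as reported, but at 0.07 with quantile normalization and 0.09 with loess.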

How the data were processed

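The deposited table holds 1 linear intensity per probe set for 1 array of each genotype. MAS5, which combines the probes of a set, is named in the submitters' processing notes. How it was run, its detection calls and a genome build are not stated in the sources used here. With 2% of the values trimmed at both ends, each array averaged 500.0, so the arrays were deposited on a common scale.

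Probe sets naming 1 gene in the platform annotation were used (34945 of 45101). The floor of 46.5 is the 40th percentile of all values over both arrays. Probe sets were kept if their mean over both arrays was at least 73.7, the median of such means, which left 11693 genes. Of the 25 member probe sets, 18 were kept, with at least 1 for each of the 10 members. The brightest kept probe set stood for a gene. Log2 ratios of the knockout over the wild-type signal were computed with numpy 2.4.6, and genes were counted from 2-fold upwards. No test was run, since each group was 1 array. The steps were tested on simulated data, with planted differences larger than any member ratio here and in genes brighter than Ankrd1. That test does not cover differences as small as those of the members.

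The members, gene lists and cell type markers were chosen with earlier results of these data known. The genes named are all 10 members, Kdm3a, the genes of the regulator and TEAD lists past 2-fold and their extremes, up to 4 lowest and 4 highest of the target lists and up to 2 of each marker list at either end. Alb, Tead2, Tead4, Sox9, Tagln, Birc5, Jag1, Dcn, Loxl1, Anxa4 and Timd4 are named besides, and were picked after values were seen. Alternatives were 5 scalings, other floors and filters, the mean of kept probe sets, leaving out probe sets whose names end in _s_at, _x_at, _a_at or _f_at (called suffixed; _a_at marks probe sets for several transcripts of one gene), and 1.5-fold and 3-fold rules.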

Additional observations from a re-analysis of the deposited data

Results flagged for a closer look

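A probe set that the annotation assigns to both Xpo4 and Lats2, 1421055_at, was left out of the comparison because it names 2 genes. Its signal was 125.1 in the knockout array and 88.8 in the wild-type array, a log2 ratio of 0.49, and it is given here because this signal lies outside the values used and is above that of the wild-type array. Whether it reads Lats2 was not tested. Lats2 alone had log2 ratios from -0.01 to 0.38 by its 4 kept probe sets.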

How the results depend on the processing

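No member log2 ratio past 2-fold changed sign under the 12 alternatives to the scaling, floor, filter or choice of probe set, and 115 of the 117 values of members moved by less than 0.446, the SD between probe sets. The exceptions were Ankrd1 with a floor at the 60th percentile (-0.33) and Cyr61 with the mean of its kept probe sets (-1.46). Many of the 117 values could hardly move, so the count of 115 says little about how firm the ratios are. A lower floor, no floor and no filter left every member as reported. Array medians, poly-A controls and hybridisation controls shift all genes by the same amount. Ankrd1 was dropped by the filter at the 70th percentile, and Amotl2 and Cyr61, whose kept probe sets all have a suffixed name, were dropped without suffixed probe sets. The poly-A control scale moved the median of all genes by 0.19, and that of the hybridisation controls by -0.14. Lower genes made up 52.3% of those past 2-fold on the poly-A scale and 80.6% on that of the hybridisation controls, against 70.1% as reported.

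Members at least 2-fold lower numbered 1 as reported, and 2 with array medians, hybridisation controls or the mean of probe sets, which adds Cyr61. They numbered 0 with the 60th percentile floor, the 70th percentile filter or a 3-fold rule, and 5 with a 1.5-fold rule on the deposited scale. Fewer passed 1.5-fold with quantile normalization, loess or poly-A controls, where Axl or Ctgf fell short. Members higher numbered 1 as reported and 0 with array medians, hybridisation controls, a 3-fold rule or without suffixed probe sets. Over the pathway lists, 14 genes were lower, but 7 with the 70th percentile filter and 7 with a 3-fold rule. Higher were 2, but 1 with the 60th percentile floor, with the 70th percentile filter and without suffixed probe sets, 4 with a 1.5-fold rule and 0 with a 3-fold rule. Over all genes, 1048 were lower, but 564 with the 70th percentile filter, 2038 with a 1.5-fold rule and 409 with a 3-fold rule. Higher were 448, but 707 with poly-A controls, 250 with the 60th percentile floor, 210 with the 70th percentile filter, 1296 with a 1.5-fold rule and 102 with a 3-fold rule. A stricter filter tests fewer genes, and a higher floor shrinks the ratios of dim ones such as Ankrd1. Of the list medians, those that moved by over 0.446 were the other described targets (-0.38), bile duct cells (-0.89), fibroblasts (-1.02) and T and NK cells (0.00) with the 60th percentile floor, and fibroblasts (-0.99) and B and plasma cells (1.99) with the 70th percentile filter. Neutrophil markers did so with no filter (-0.22) and without suffixed probe sets (-0.83). The median of the TEAD factors and partners turned negative (-0.12) with the 70th percentile filter. That of the hepatocyte markers moved by less than 0.446, but fell to 0.07 with quantile normalization and 0.09 with loess. No paired analysis was possible because each group was 1 array.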
